A study of Mus musculus with 47 samples.

Results

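The cytochrome P450 genes of families 1 to 4 were followed in medullary thymic epithelial cells (mTECs) of the mouse. Every protein-coding gene of the GENCODE M21 annotation (build GRCm38) whose symbol is Cyp1, Cyp2, Cyp3 or Cyp4 followed by a subfamily letter and a gene number was taken as a member. This gave 76 genes in 22 subfamilies, out of 53402 genes in the adult table and 55471 in the neonatal table. Cyp2c was the largest subfamily with 15 genes, followed by Cyp4f with 9, Cyp2d and Cyp2j with 8 each, Cyp3a with 7, Cyp2b and Cyp4a with 5 each and Cyp2a with 4. In all, 66 of the 76 members lay in 8 clusters of neighbouring genes and 10 stood alone.

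Cytochrome P450 enzymes are haem-containing monooxygenases of the endoplasmic reticulum that take electrons from NADPH through the reductase Por. Members of families 1 to 3 are best known for the oxidation of drugs, environmental chemicals and steroids in liver, gut and airway, and family 4 for the oxidation of fatty acids and eicosanoids. Many are expressed in a few organs, and mTECs transcribe many such tissue-restricted genes, with the help of the nuclear protein Aire, so that developing T cells meet them as self antigens. EED belongs to the core of Polycomb repressive complex 2, which places a repressive methyl mark on histone H3.

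RNA was sequenced in bulk from cells that lacked CD45 and Ly51 and carried EpCAM, sorted by MHC class II into mTEChi (high) and mTEClo (low), all on the C57BL/6 background. The 23 adult libraries held mTEChi of wild-type mice (WT, n = 7) and of Aire knockout mice (AireKO, n = 4), and mTEClo of WT (n = 8) and AireKO (n = 4). WT mice were 4 to 5 weeks and AireKO mice 5 to 6 weeks old. All 8 adult AireKO libraries came from males, whereas 5 of 7 mTEChi WT and 3 of 8 mTEClo WT libraries did. The 24 neonatal libraries held mTEChi of controls (Ctrl, n = 5, 1 to 6 days), of EED knockouts restricted to the thymic epithelium (EEDcKO, n = 3, 1 to 6 days), of AireKO (n = 3, 4 to 6 days) and of mice lacking both (AireEEDdKO, n = 3, 4 to 6 days). They also held mTEClo of Ctrl (n = 3, 1 to 3 days), EEDcKO (n = 4, 1 to 6 days) and AireEEDdKO (n = 3, 4 to 6 days), and there was no neonatal mTEClo AireKO group. The floxed Eed allele was deleted by Cre driven from Foxn1, a gene of all thymic epithelial cells, and some neonatal libraries pooled cells of male and female mice. P-values measure the spread between these libraries.

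Total gene counts per library ran from 1602125 to 3938588 in the adult table and from 1578579 to 4817418 in the neonatal table. Levels are in CPM, that is, counts brought to 1 shared library size. Aire itself averaged 818 CPM in adult mTEChi WT and 29.3 in AireKO, and in neonatal mTEChi 619 in Ctrl, 821 in EEDcKO, 70.6 in AireKO and 21.6 in AireEEDdKO. Eed averaged 29.1 CPM in neonatal mTEChi Ctrl and 14.8 in EEDcKO (adjusted p = 0.0014), and 24.2 and 15.2 in mTEClo (adjusted p = 0.023). All defining mTEC markers had counts in every group. Mitochondrial counts were missing from 6 of the 23 adult libraries. These were the 4 of mTEChi AireKO and replicates 3 and 4 of mTEClo AireKO. In adult mTEChi this library kind cannot be told apart from the Aire genotype by a direct comparison. In bulk RNA, fewer cells of a type and less RNA per cell cannot be told apart.

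The promoters are shown for 4 members that recur in the comparisons, because they differ in the 2 letter features searched. Cyp1a2 and Cyp1a1 (ENSMUSG00000032310 and ENSMUSG00000032315) lie next to each other on chromosome 9, pointing away from each other, Cyp1b1 (ENSMUSG00000024087) lies alone on chromosome 17, and Cyp2s1 (ENSMUSG00000040703) is at the end of the chromosome 7 cluster. Each window is the RefSeq promoter on GRCm38.p6, read 5′ to 3′ on the gene's strand from 250 bases before to 50 bases after the start. Capitals mark every CG dinucleotide and any TATAAA in the 50 bases before the start.
Cyp1a2, chr9:57683606-57683905, minus strand: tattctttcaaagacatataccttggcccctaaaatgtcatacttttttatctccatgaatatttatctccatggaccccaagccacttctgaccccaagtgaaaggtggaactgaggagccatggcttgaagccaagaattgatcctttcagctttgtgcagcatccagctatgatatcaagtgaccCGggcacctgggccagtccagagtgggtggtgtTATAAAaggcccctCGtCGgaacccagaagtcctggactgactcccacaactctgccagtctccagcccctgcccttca
Cyp1a1, chr9:57697363-57697662, plus strand: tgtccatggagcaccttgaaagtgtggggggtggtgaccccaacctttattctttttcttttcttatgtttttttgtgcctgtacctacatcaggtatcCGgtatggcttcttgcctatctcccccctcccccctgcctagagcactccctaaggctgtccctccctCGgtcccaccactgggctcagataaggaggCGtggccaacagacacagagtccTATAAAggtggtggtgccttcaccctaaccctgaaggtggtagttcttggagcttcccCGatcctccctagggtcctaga
Cyp1b1, chr17:79715012-79715311, minus strand: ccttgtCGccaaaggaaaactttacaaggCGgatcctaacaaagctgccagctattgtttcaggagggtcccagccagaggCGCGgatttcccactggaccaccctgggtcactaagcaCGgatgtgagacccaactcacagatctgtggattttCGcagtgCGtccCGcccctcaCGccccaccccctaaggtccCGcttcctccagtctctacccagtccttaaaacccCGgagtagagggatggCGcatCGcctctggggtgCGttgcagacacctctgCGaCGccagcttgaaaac
Cyp2s1, chr7:25816476-25816775, minus strand: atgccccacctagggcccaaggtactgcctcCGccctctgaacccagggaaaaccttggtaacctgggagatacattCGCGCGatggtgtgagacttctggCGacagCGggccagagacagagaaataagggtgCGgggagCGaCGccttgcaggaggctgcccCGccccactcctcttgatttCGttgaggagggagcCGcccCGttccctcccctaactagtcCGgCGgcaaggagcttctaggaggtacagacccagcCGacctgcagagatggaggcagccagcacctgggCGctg

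The RefSeq start of Cyp1a1 was 9685 bases inside the GENCODE gene, and that of Cyp2s1 was 388 bases inside. A window was at hand for 63 of the 76 members. TATAAA stood on the gene's strand in the 50 bases before the start in 12 of the 63 (19%), among them Cyp1a2 and Cyp1a1, against 564 of 16520 protein-coding genes (3.41%). The median number of CG dinucleotides in the window was 2 (quartiles 1 and 4) for the members and 14 (quartiles 4 and 25) for protein-coding genes. Only 5 of the 63 members (7.94%) held 10 or more, against 59.2% of protein-coding genes. Cyp1b1 with 16 and Cyp2s1 with 17 were among these 5, whereas Cyp1a2 held 3 and Cyp1a1 held 4. A match is a description of the letters, not a site of binding.

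The 8 clusters ran from the Cyp1a pair, 26.9 kb on chromosome 9 (57676937 to 57703824), to the 13 genes of subfamilies 2a, 2b, 2f, 2g, 2s and 2t, 1356.2 kb on chromosome 7 (25802475 to 27158668). The 14 clustered Cyp2c genes spanned 1180.3 kb of chromosome 19 (39007019 to 40187333), 8 Cyp2d genes 423.8 kb of chromosome 15 (82370527 to 82794294) and 6 Cyp3a genes 768.0 kb of chromosome 5 (145345279 to 146113287). Chromosome 4 held 8 Cyp2j genes over 636.6 kb (96027534 to 96664154) and 7 genes of Cyp4a, Cyp4b and Cyp4x over 541.4 kb (115106323 to 115647723). Chromosome 17 held 8 Cyp4f genes over 494.7 kb (32452723 to 32947402). Paralogs limited how well reads could be assigned. Of the 76 members, 21 shared more than 20% of their 50-base exon stretches with other genes, the read length in use, and 10 shared none. Cyp2c40 was at 60.31%, Cyp2a5 at 37.03% (mostly with Cyp2a4) and Cyp3a25 at 26.84%, while Cyp1a2 was at 4.79% and Cyp1b1 at 0. Exons of 14 members overlapped those of another gene, among them Cyp2f2 with Gm15883, Cyp2s1 with Gm26707 and Cyp4f18 with Zfp961, and counting did not use the strand.

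Levels between genes were compared per kilobase of exon. In adult mTEChi WT the highest mean level was that of Cyp2a5, the coumarin 7-hydroxylase, at 50.6 CPM per kb. Cyp1a2, a liver enzyme that oxidizes caffeine and arylamines, followed at 24.0, Cyp4f16 at 23.9, Cyp2g1, an olfactory mucosa enzyme, at 19.7, Cyp3a13 at 13.3 and Cyp2b19, a keratinocyte epoxygenase, at 12.7. Adult mTEClo WT had another order on the same per-length scale, with Cyp2f2, the naphthalene-oxidizing enzyme of club cells of the airway, at 62.6 and Cyp2a5 at 28.9. In neonatal mTEChi Ctrl the per-length order was Cyp2a5 at 20.8, Cyp4f16 at 18.3 and Cyp1a2 at 15.0. The summed level of the 76 members had a median of 723 CPM in adult mTEChi WT (657 to 799), 512 in AireKO (468 to 590), 648 in mTEClo WT (570 to 813) and 559 in mTEClo AireKO (392 to 647). In neonatal mTEChi the sum had a median of 500 CPM for Ctrl (457 to 578), 439 for EEDcKO (371 to 452), 340 for AireKO (340 to 421) and 393 for AireEEDdKO (285 to 536). The adult mTEChi WT and AireKO sums did not overlap, nor did those of neonatal Ctrl with either single knockout.

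**Figure D1:**
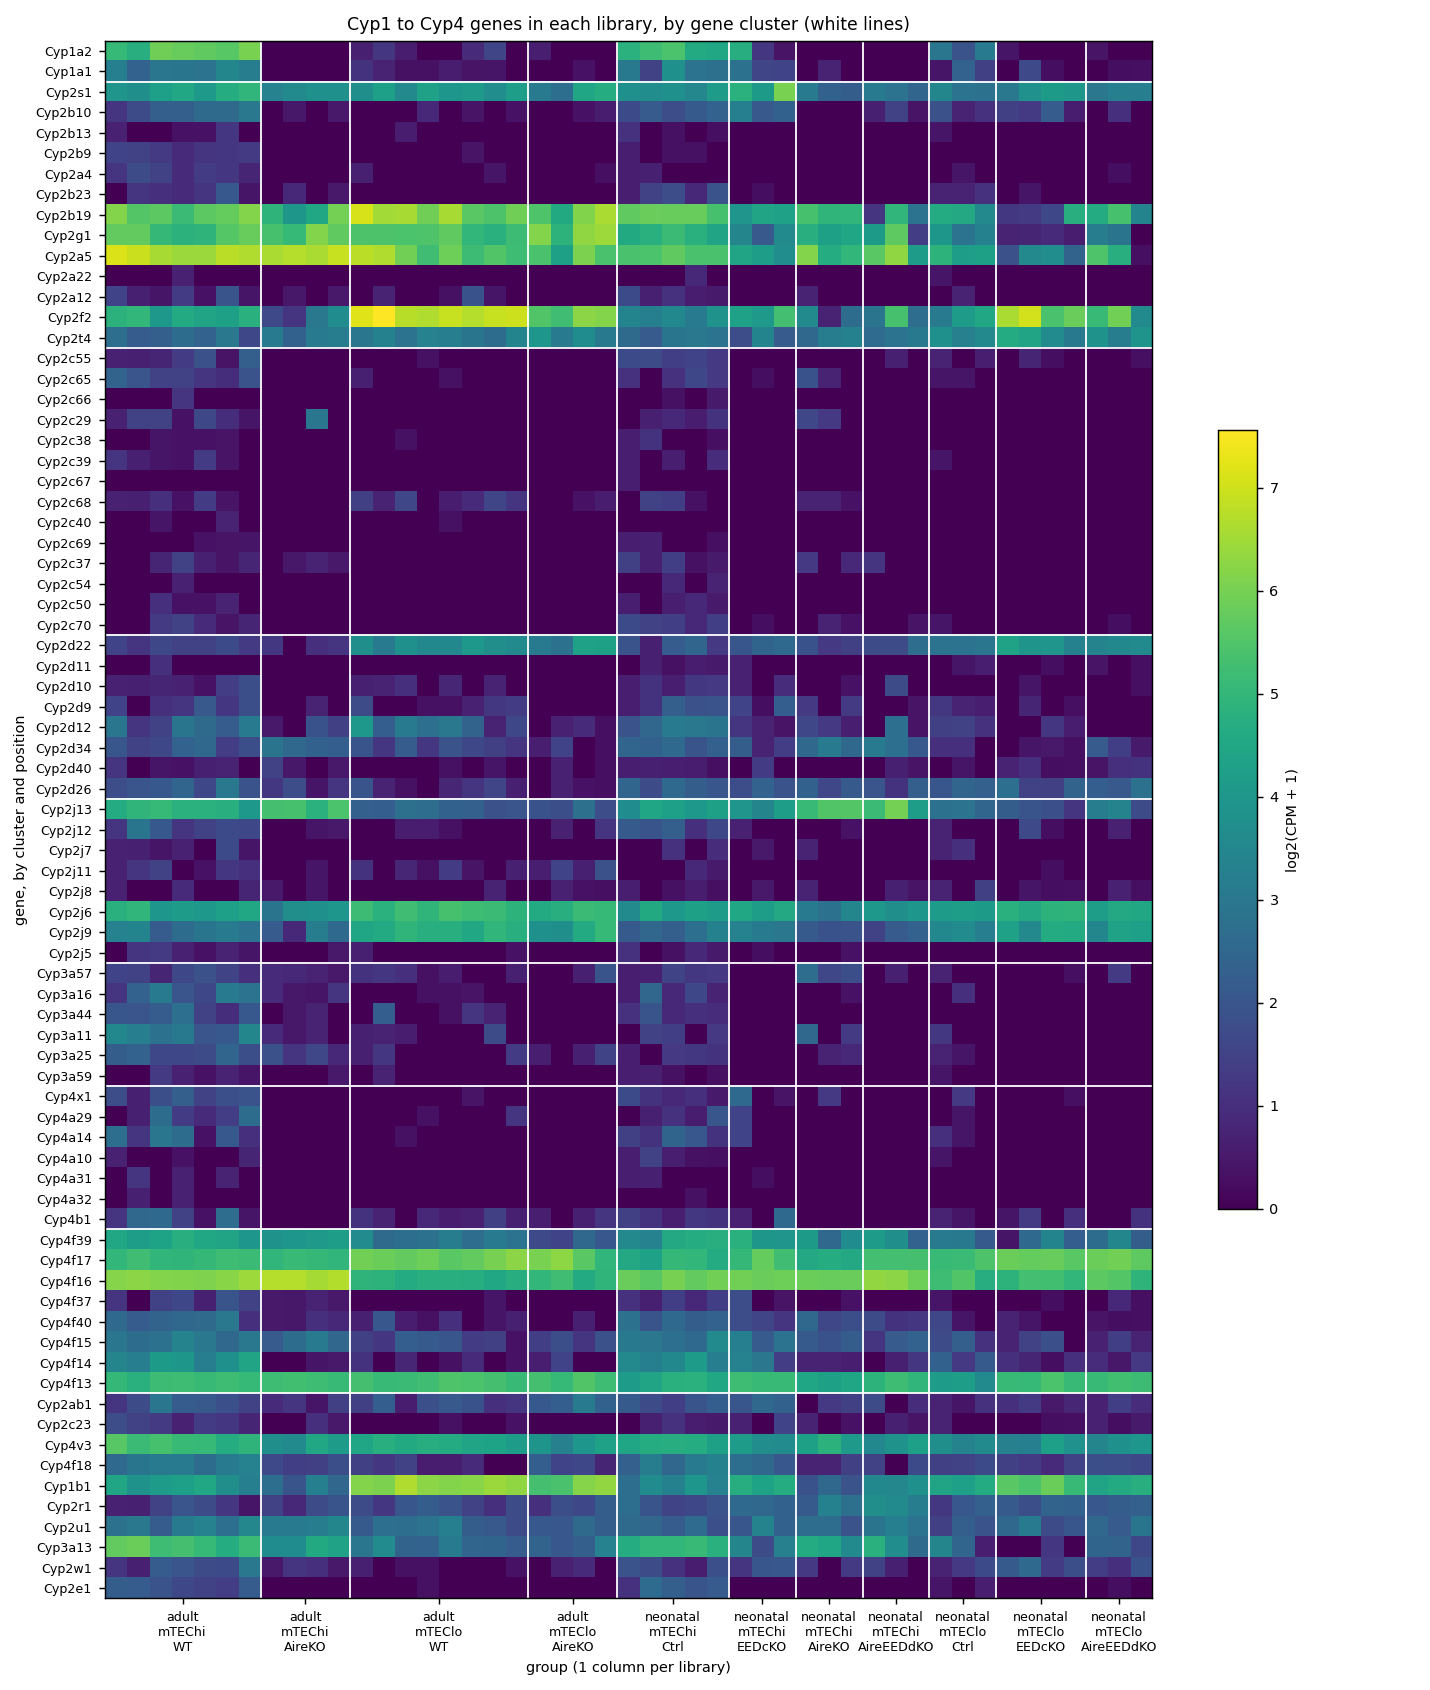
Expression of the 76 members (rows, ordered by gene cluster) in the 47 libraries (columns, ordered by group), as colour on a log2(CPM + 1) scale. Long runs of members with no count in AireKO, EEDcKO and AireEEDdKO mTEChi stand beside a few genes such as Cyp2a5, Cyp4f16 and Cyp4f13 that have counts throughout.

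The breadth of expression was wide in mTEChi of WT and Ctrl mice and narrower in every other group. Of the 76 members, 75 had a count in the 7 adult mTEChi WT libraries together (all but Cyp2c67), and 75 in the 5 neonatal mTEChi Ctrl libraries (all but Cyp2c40). The number was 47 in adult mTEChi AireKO, 60 in mTEClo WT and 40 in mTEClo AireKO. In neonatal mTEChi it was 49 in EEDcKO, 48 in AireKO and 38 in AireEEDdKO, and in mTEClo 59 in Ctrl, 45 in EEDcKO and 43 in AireEEDdKO. Since groups differ in size and depth, the number of members expected to have a count was also computed for each library at a common depth of 1500000 counts. It was 73.9% to 83.0% of the members in adult mTEChi WT and 40.5% to 46.3% in AireKO, and these ranges did not overlap. Over all protein-coding genes the medians at that depth were 83.1% and 72.0%. In neonatal mTEChi the Ctrl libraries ranged from 72.8% to 79.6% of the members, the EEDcKO libraries from 45.4% to 53.6%, the AireKO libraries from 44.9% to 49.2% and the AireEEDdKO libraries from 36.3% to 41.3%. The medians for protein-coding genes were 82.5%, 79.0%, 73.3% and 74.5% in the same order. In EEDcKO the median share was 45.4% for the members and 79.0% for protein-coding genes. Protein-coding genes were not matched to the members in level, so these shares cannot show a loss particular to the P450 genes. Only 22 members in adult mTEChi WT and 22 in neonatal mTEChi Ctrl averaged 5 CPM or more, so most of this breadth consisted of genes at a few counts per library.

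**Figure D2:**
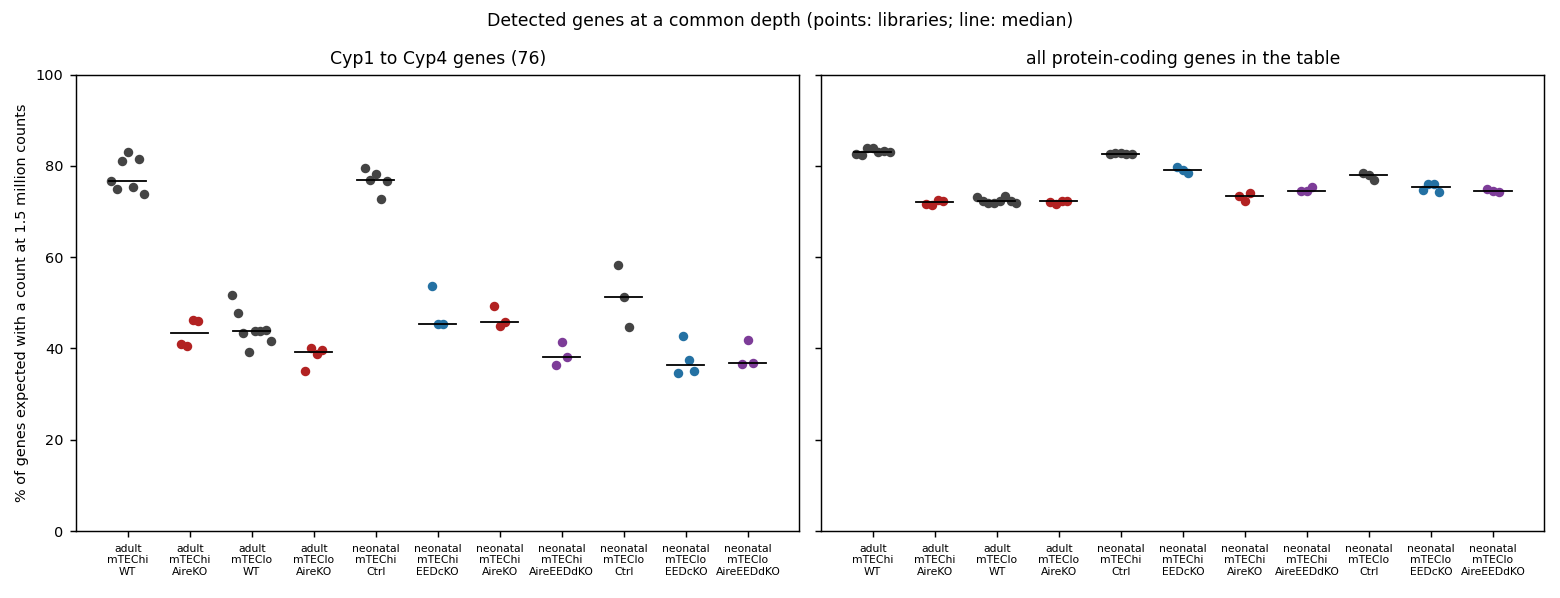
Percent of genes expected to have at least 1 count at 1500000 counts per library, for the 76 members and for all protein-coding genes, with 1 point per library and the groups along the x axis. The members' share in adult mTEChi AireKO (40.5% to 46.3%) and neonatal mTEChi EEDcKO (45.4% to 53.6%) sits below that of mTEChi WT and Ctrl.

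Adult mTEChi of AireKO and WT mice were compared to ask how the P450 genes differ when Aire is lost. Of 30 members with enough counts to be tested in the adult table, 14 fell by at least 2-fold with an adjusted p under 0.05, and none rose (edgeR's quasi-likelihood test). At an unadjusted p under 0.05, 18 were lower and 3 higher, and DESeq2 called 0 higher and 14 lower. Among all genes tested, 17.8% were called lower and 5.63% higher. The median log2 fold change of the tested members was -0.89, against -0.01 for all genes tested. The members that fell belonged to 9 subfamilies, and the largest changes were those of the Cyp1a pair, Cyp4f14, Cyp2b10, Cyp3a11 and Cyp3a16. Cyp1a1, Cyp1a2, Cyp2b10, Cyp3a11, Cyp3a16, Cyp4f14 and Cyp4f40 averaged at most 0.81 CPM in every adult group but mTEChi WT. They passed the filter on low counts through mTEChi WT, so a fall was the only large change open to them here.

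Cyp1a2 had 25.8, 51.6 and 65.3 CPM as its lowest, median and highest level in the 7 WT libraries, and 0 in each of the 4 AireKO libraries. Its level was at least 162-fold lower in AireKO, the bound set by 3 counts over the group (log2 fold change -10.10 ± 0.72, adjusted p = 3.5e-11). The neighbouring Cyp1a1, which hydroxylates polycyclic aromatic hydrocarbons, had 4.20, 6.78 and 10.0 CPM in WT and again 0 in each AireKO library, at least 24.3-fold lower (adjusted p = 4.7e-09). No AireKO library thus held a read of either gene, whereas the WT libraries held 1086 counts of the pair.

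The Cyp4f cluster divided by gene. Cyp4f14, a leukotriene B4 hydroxylase of liver and gut, had 8.40, 12.9 and 20.4 CPM as the lowest, median and highest WT level and 0, 0, 0.342 and 0.418 in AireKO. The groups were far apart, with means 68.8-fold different (log2 fold change -5.77 ± 0.64, adjusted p = 1.9e-08). Cyp4f40 (4.42 against 0.678 CPM, -2.61 ± 0.58, adjusted p = 0.00038) fell as well. Cyp4f18, which lies apart from the cluster, was at 4.96, 7.42 and 9.28 CPM in WT and 2.19, 1.64, 1.71 and 2.51 in AireKO (-1.80 ± 0.40, adjusted p = 0.00038). The abundant genes of the same cluster did not fall. Cyp4f16 was at 67.5, 71.9 and 85.7 CPM in WT and 105, 104, 91.7 and 102 in AireKO, a log2 fold change of 0.46 ± 0.10 with an adjusted p of 0.0002 that stayed under 2-fold. Cyp4f13 changed by 0.10 ± 0.11 and Cyp4f17 by -0.05 ± 0.17, with adjusted p of 0.46 and 0.82. The summed level of the 8 clustered Cyp4f genes accordingly lay between 175 and 197 CPM in WT and between 186 and 196 in AireKO.

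Cyp3a enzymes oxidize many drugs and steroids. In this subfamily Cyp3a11 had 3.00, 7.25 and 10.5 CPM in WT and 0.877, 0.409, 0.685 and 0 in AireKO, with no overlap (-3.63 ± 0.69, adjusted p = 9.2e-05). Cyp3a16 had 1.24, 4.20 and 7.85 CPM in WT and 0.877, 0.409, 0.342 and 1.25 in AireKO, so the groups touched (-2.68 ± 0.55, adjusted p = 0.0002). Cyp3a13, which stands alone, was the most abundant Cyp3a gene, at 24.5, 36.1 and 57.0 CPM in WT and 11.8, 11.9, 22.9 and 19.6 in AireKO. All 4 AireKO libraries were below every WT library (-1.21 ± 0.26, adjusted p = 0.00025).

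In family 2, Cyp2b10, the phenobarbital-inducible liver enzyme, had 1.24, 3.93 and 7.14 CPM in WT and 0, 0.409, 0 and 0.418 in AireKO (-4.17 ± 0.68, adjusted p = 8.9e-06). Cyp2f2 had 15.3, 23.9 and 31.2 CPM in WT and 2.19, 1.23, 7.19 and 11.7 in AireKO (-2.01 ± 0.35, adjusted p = 1.9e-05). Both were separated without overlap, while Cyp2d12 (-1.85 ± 0.68, adjusted p = 0.023) and Cyp2ab1 (-1.65 ± 0.54, adjusted p = 0.011) overlapped between the groups. Cyp2a5 did not pass the test, at 84.9, 99.3 and 141 CPM in WT and 95.2, 104, 96.5 and 121 in AireKO, with a 95% interval of the log2 fold change from -0.50 to 0.50. Cyp2g1 changed by 0.24 ± 0.24, with an interval from -0.23 to 0.71. Among the genes that stand alone, Cyp1b1, an oestradiol hydroxylase found in many extrahepatic tissues, had 8.57, 17.1 and 21.9 CPM in WT and 5.70, 2.86, 8.56 and 4.59 in AireKO (-1.53 ± 0.30, adjusted p = 9.8e-05). Cyp4v3, a fatty acid hydroxylase, had 24.5, 33.5 and 47.7 CPM in WT and 12.7, 11.1, 21.9 and 17.1 in AireKO (-1.10 ± 0.19, adjusted p = 2.5e-05).

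With the library kind as a term, which the adult mTEClo AireKO libraries of both kinds make estimable, 13 members were called (1 higher, 12 lower) and 7 of the 14 were still called, namely Cyp1a1, Cyp1b1, Cyp2ab1, Cyp2b10, Cyp2f2, Cyp3a13 and Cyp4v3. Cyp1a2 then stood at -7.20 (adjusted p = 1.0) and Cyp4f14 at -1.02 (adjusted p = 0.77), neither called, although no mTEChi AireKO library held a Cyp1a2 read. The other lost calls were at -3.62 for Cyp3a11, -2.69 for Cyp3a16, -5.42 for Cyp4f40, -2.64 for Cyp2d12 and -0.73 for Cyp4f18. The term rested on mTEClo AireKO replicates 1 and 2 (5 weeks) against 3 and 4 (6 weeks), which were also sequenced deeper. In these libraries Cyp3a11 and Cyp3a16 had no count, and Cyp1a2, Cyp4f40 and Cyp4f14 reached at most 0.541, 0.596 and 1.88 CPM. For these genes the lost call cannot show what part library kind had. Leaving out AireKO replicate 3 ended the call of Cyp2ab1, leaving out AireKO replicate 1 or 2 that of Cyp2d12, and leaving out AireKO replicate 2 that of Cyp4v3. Markers of enterocytes and hepatocytes, 10 genes such as Apoa1 and Fabp1, also moved with the genotype. They summed to 521 to 799 CPM in WT and 213 to 307 in AireKO, where Alb, 1 of the 10, was at 0, and 6 were called lower. The 5 airway secretory markers summed to 112 to 234 CPM in WT and 7.1 to 15.8 in AireKO, where Scgb3a2 was at 0. Their part in these results was not tested.

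**Figure D3:**
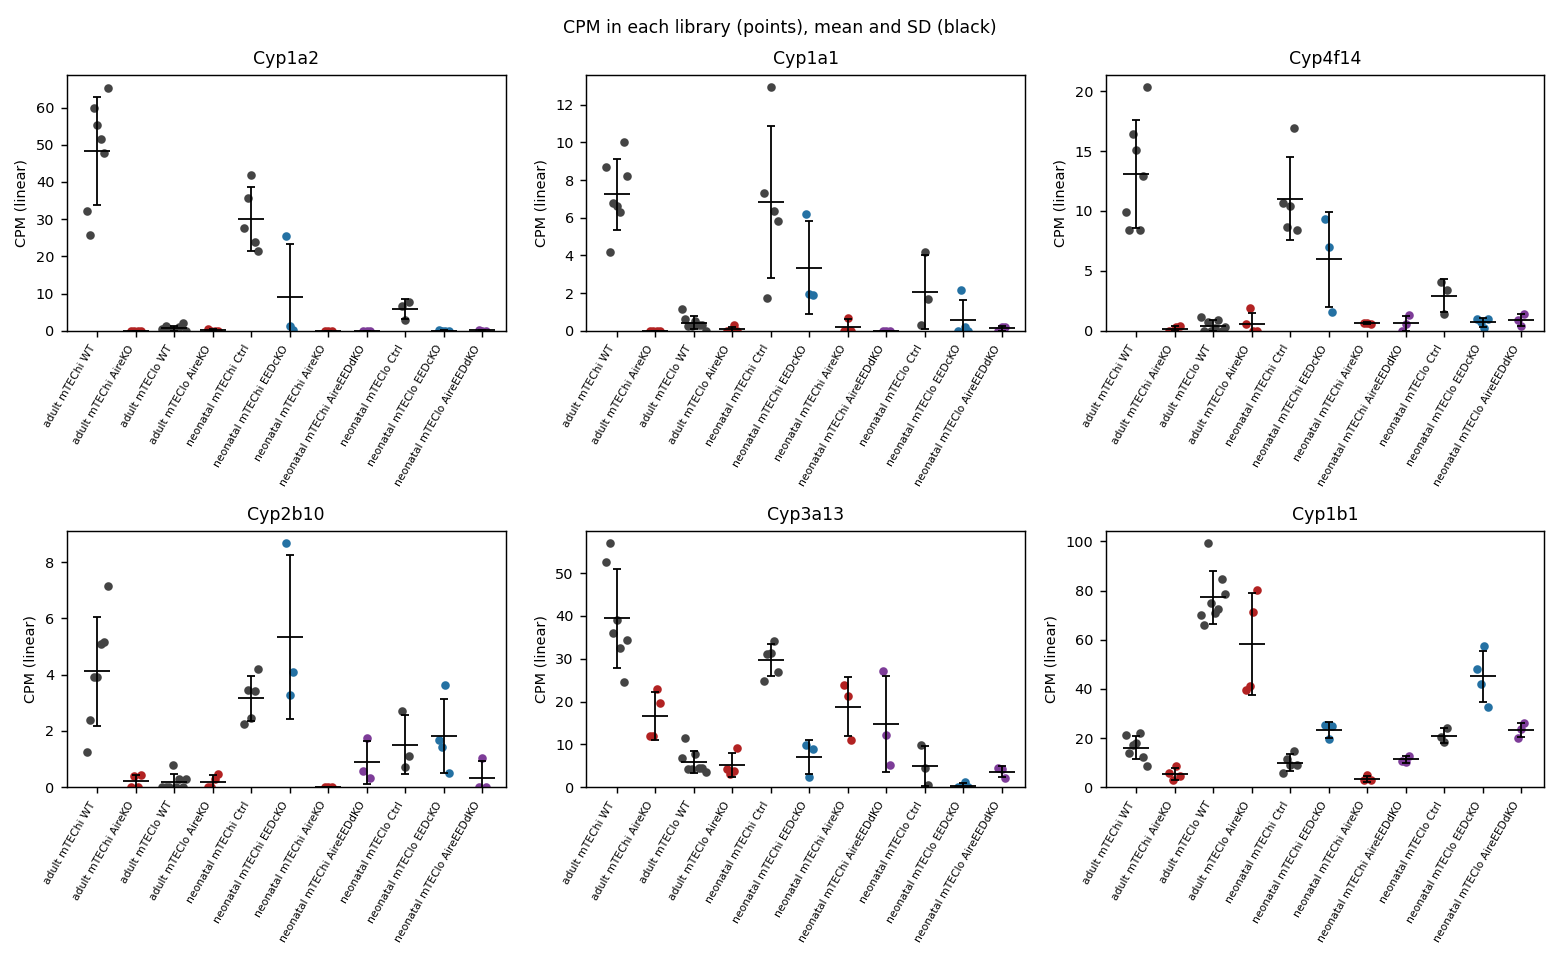
CPM of Cyp1a2, Cyp1a1, Cyp4f14, Cyp2b10, Cyp3a13 and Cyp1b1 in every library, 1 point per library, with the mean and SD of each group in black. Cyp1a2 lies at 25.8 to 65.3 CPM in adult mTEChi WT and at 0 in AireKO, and Cyp1b1 is higher in neonatal mTEChi EEDcKO (19.7 to 25.4) than in Ctrl (5.62 to 14.8).

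Most members were too low for a test, 43 of 76 in both tables. Their counts could still be set side by side. In adult mTEChi, 29 members had no count in the 4 AireKO libraries, and 28 of these had between 2 and 949 counts in the WT libraries together (median 12.5). Of the 28, 22 had more than 3 counts in the WT libraries together. Only Cyp2c67 was at 0 in the 7 WT libraries, and it was at 0 in AireKO too. The reverse pattern could therefore hardly arise, and WT also had more libraries. The share of all genes with counts in WT and none in AireKO was not computed. Without the filter on low counts, 34 of the 75 members with a count were called lower and none higher, against 15.3% and 3.45% of all genes. Cyp2e1, the ethanol- and acetaminophen-oxidizing enzyme of liver, was among these members, at 1.61, 2.86 and 3.72 CPM in WT and at 0 in all 4 AireKO libraries.

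By cluster, the 7 genes of Cyp4a, Cyp4b and Cyp4x on chromosome 4 summed to 3.30, 10.4 and 19.6 CPM (lowest, median and highest) in adult mTEChi WT and to 0 in AireKO. The 14 Cyp2c genes summed to 5.49, 8.93 and 11.4 CPM in WT, with counts for 13 of them, and to 0 to 7.53 in AireKO, with counts for 2. The high AireKO value came from replicate 3, in which Cyp2c29 was at 6.85 CPM and 0 in the other 3. The 6 clustered Cyp3a genes summed to 12.3, 20.8 and 23.6 CPM in WT and 2.92 to 5.26 in AireKO. The chromosome 7 cluster, led by Cyp2a5, overlapped between WT (208 to 318) and AireKO (169 to 267), as did the Cyp2j cluster (48.6 to 79.8 and 49.6 to 62.2).

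Adult mTEClo were compared in the same way. Of the 30 tested members 4 fell and 1 rose in mTEClo AireKO, beside 3.88% and 4.42% of all genes, and the members' median log2 fold change was -0.25. Cyp2f2 had 100.2, 121 and 188 CPM as its lowest, median and highest WT level and 44.4, 36.9, 74.5 and 69.9 in AireKO (-1.11 ± 0.22, adjusted p = 0.00043). It had no overlap between the groups, and neither had Cyp4f39, an epidermal ceramide-pathway hydroxylase, at 5.09, 6.16 and 11.5 CPM in WT and 2.17, 1.88, 4.77 and 3.16 in AireKO (-1.07 ± 0.26, adjusted p = 0.0033). Both calls were lost among the male libraries alone. Both also went just below 2-fold without AireKO replicate 2 (-0.97 and -0.96), and Cyp4f39 without AireKO replicate 1 (-0.97) or WT replicate 1 (-0.98). Cyp2d12 (-3.51 ± 0.80, adjusted p = 0.0019) and Cyp2d34 (-2.09 ± 0.59, adjusted p = 0.01) fell with overlapping groups. Cyp2ab1 rose (1.23 ± 0.39, adjusted p = 0.023), also with overlap. Among the libraries with mitochondrial counts, Cyp2ab1 and Cyp2d34 were no longer called, and the same held without AireKO replicate 3 (0.87 and -1.59), and for Cyp2d34 without replicate 4 (-1.76). The count was 3 without AireKO replicate 2 and 3 without AireKO replicate 3.

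The difference between the Aire effect in mTEChi and in mTEClo was tested as an interaction. It was called for 7 of the 30 members, more negative in mTEChi for 6 and more positive for 1, while 11% and 2.7% of all genes were called in these directions. Cyp4f14 differed by -5.67 ± 1.60 on the log2 scale (adjusted p = 0.0096), Cyp2b10 by -4.52 ± 1.53 (0.03), Cyp4f18 by -3.05 ± 0.67 (0.0012), Cyp3a13 by -1.24 ± 0.43 (0.036) and Cyp1b1 by -1.16 ± 0.35 (0.016). Cyp2ab1 differed by -2.87 ± 0.67 and Cyp2d34 by 2.77 ± 0.69. The call of Cyp3a13 was lost with the replicate block and without any of 8 of the 23 libraries, namely mTEChi AireKO replicate 1 or 2, mTEChi WT replicate 1 or 2, mTEClo WT replicate 3, 4 or 8, or mTEClo AireKO replicate 4, where it was smallest at -0.68. Cyp1b1 lost it without mTEChi AireKO replicate 2 (-0.95) or mTEClo AireKO replicate 4 (-0.96), Cyp2b10 without mTEClo AireKO replicate 3 (-4.48) or 4 (-3.79), and Cyp4f14 without mTEClo AireKO replicate 2 (-4.21). For Cyp4f14 the mTEClo levels were themselves close to 0, with means of 0.423 CPM in WT and 0.605 in AireKO. For Cyp3a13 the mTEClo means were 5.88 and 5.14 CPM (0.03 ± 0.34). The library kind differs between the mTEChi groups and within mTEClo AireKO, and its part in this difference was not tested.

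The MHC class II fractions of WT mice differed in 17 of the 30 members. In mTEChi 13 were higher and 4 lower than in mTEClo, against 23.7% and 12.4% of all genes. Cyp1a2 averaged 48.3 CPM in mTEChi and 0.661 in mTEClo, 73.1-fold apart (6.31 ± 0.35, adjusted p = 1.5e-14). Cyp4f14 (4.88), Cyp3a16 (4.84), Cyp1a1 (4.15), Cyp2b10 (4.15), Cyp3a11 (3.75) and Cyp4f18 (3.12) were also higher by a log2 fold change over 3. Cyp3a13 was higher by 2.80, and the members higher by smaller amounts were Cyp4f40, Cyp2j13, Cyp4f39, Cyp4f15 and Cyp4f16. Cyp1a1, Cyp1a2, Cyp2b10, Cyp3a11, Cyp3a16, Cyp4f14 and Cyp4f40 passed the filter on low counts through mTEChi WT. A higher level in mTEChi was therefore the only large difference open to them. The 4 lower members were Cyp2d22 (1.79 against 11.6 CPM, -2.66 ± 0.28), Cyp2f2 (23.5 against 127, -2.45 ± 0.20), Cyp1b1 (16.1 against 77.2, -2.27 ± 0.18) and the arachidonic acid-metabolizing Cyp2j9 (6.91 against 25.6, -1.95 ± 0.24). These 4 did not overlap between the fractions. Without the filter on low counts, 43 of 75 members were called higher and 4 lower, against 24.6% and 7.63% of all genes. Markers of other cell types differed between the fractions as well. The 10 enterocyte and hepatocyte markers summed to 521 to 799 CPM in adult mTEChi WT and 69.3 to 152 in mTEClo WT, and to 399 to 576 and 92.3 to 200 in neonatal Ctrl. The 6 myeloid markers summed to 273 to 347 and 38.2 to 68.7 CPM in the adult, and the 5 cortical thymic epithelial markers to 186 to 692 and 1690 to 2610 in neonatal Ctrl, with none of these markers at 0. Their part in the differences of the P450 genes was not tested.

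In adult AireKO mice the fractions differed in 15 members, 9 higher and 6 lower in mTEChi, beside 18.5% and 16.7% of all genes. Cyp2d22 (-3.88), Cyp1b1 (-3.42), Cyp2f2 (-3.35) and Cyp2j9 (-2.24) were again lower in mTEChi, together with Cyp2ab1 (-2.23) and Cyp2j6 (-1.34). Cyp3a16 (4.05), Cyp2j13 (3.36), Cyp2d34 (3.24), Cyp4f39 (2.24), Cyp4f16 (1.75), Cyp3a13 (1.56), Cyp4f15 (1.41), Cyp2a5 (1.27) and Cyp2u1 (1.09) were higher. All mTEChi AireKO libraries lacked mitochondrial counts, but of mTEClo AireKO only replicates 3 and 4 did. Among libraries without these counts Cyp2a5 (0.94) and Cyp2u1 (0.92) went below 2-fold. Cyp2u1 was also lost with library size alone (0.95) and without mTEChi AireKO replicate 4. In neonatal Ctrl mice 13 of 31 tested members were higher in mTEChi and 2 lower, against 13.8% and 6.92% of all genes, and the members' median log2 difference was 1.04. The 2 lower members were Cyp2d22 (-1.24, adjusted p = 0.015) and Cyp1b1 (-1.02, adjusted p = 0.0018). Cyp1b1 stood at the 2-fold bound, and its fold change fell below it at -0.96 under DESeq2 and between -0.98 and -0.91 without mTEChi Ctrl replicate 1, 3 or 5 or mTEClo Ctrl replicate 3. With the replicate number as a block Cyp2d22 was at -1.04 and not called (adjusted p = 0.069). Among the members tested at both ages, 12 were higher in neonatal and 11 in adult WT mTEChi, and 8 were higher at both ages. The share of all genes higher at both ages was not computed. Cyp2d12 and Cyp4f39, also called higher in the neonate, lost the call without any of 6 libraries each (mTEChi Ctrl replicate 3, 4 or 5 or any mTEClo Ctrl library), at 1.76 to 2.00 and 1.34 to 1.77. The neonatal mTEClo Ctrl libraries still had 6.75, 2.81 and 7.88 CPM of Cyp1a2, beside 0 to 2.02 in adult mTEClo WT, in a table that was scaled separately.

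Neonatal mTEChi of AireKO and Ctrl mice were compared next. Of 31 tested members 10 fell and 2 rose, beside 12.8% and 3.56% of all genes, and the members' median log2 fold change was -0.71 against 0.03 for all genes. Cyp1a2 had 27.6, 35.8, 41.8, 23.8 and 21.5 CPM in the 5 Ctrl libraries and 0 in the 3 AireKO libraries, at least 64.7-fold lower (-9.49 ± 1.65, adjusted p = 0.00038). Cyp1a1 had 7.31, 1.73, 12.9, 6.34 and 5.86 CPM in Ctrl and 0, 0.689 and 0 in AireKO (-5.14 ± 1.22, adjusted p = 0.0037). Every AireKO library was below every Ctrl library for both genes of the pair.

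Cyp2e1 had 1.12, 5.20, 3.85, 2.90 and 3.51 CPM in Ctrl and 0 in each AireKO library, at least 7.14-fold lower (adjusted p = 0.002). Cyp2b10 had 2.25, 3.46, 2.48, 3.43 and 4.21 CPM in Ctrl and 0 in each AireKO library, at least 6.81-fold lower (adjusted p = 0.0033). Cyp4f14 had 10.7, 8.66, 10.4, 16.9 and 8.43 CPM in Ctrl and 0.685, 0.689 and 0.565 in AireKO (-4.07 ± 0.67, adjusted p = 0.00013). None of these 3 genes overlapped between the groups. Cyp4f18 (-2.47 ± 0.50), Cyp2d12 (-2.34 ± 0.80), Cyp1b1 (10.0 to 3.46 CPM, -1.61 ± 0.32), Cyp2s1 (13 to 5.11 CPM, -1.43 ± 0.43) and Cyp2j6 (17 to 7.97 CPM, -1.02 ± 0.22) fell as well. Cyp2d12 was no longer called without AireKO replicate 2 or 3 or Ctrl replicate 3, 4 or 5 (-2.49 to -1.76), nor with sex as a term. Cyp2s1 was no longer called without AireKO replicate 2 or 3 (-1.41 and -1.15), and Cyp2j6 went below 2-fold without AireKO replicate 2 or Ctrl replicate 2 or 4 (-0.99 to -0.95). All 3 lost the call with the replicate block. Cyp2j13 rose, from 11.8, 20.8, 18.1, 15.3 and 18.5 CPM in Ctrl to 32.9, 44.8 and 45.5 in AireKO (1.28 ± 0.33, adjusted p = 0.0065). Cyp2r1, a vitamin D 25-hydroxylase, rose with overlapping groups (1.07 ± 0.37, adjusted p = 0.033), a call lost under 6 of 7 other settings, DESeq2 among them, and without AireKO replicate 2 or 3 or Ctrl replicate 2, 3, 4 or 5 (0.71 to 1.10). Cyp3a13, which fell in the adult, had 24.0, 21.4 and 11 CPM in AireKO and 24.8 to 34.1 in Ctrl (-0.71 ± 0.50, adjusted p = 0.31).

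The adult and neonatal AireKO comparisons share no library, and 28 members were tested in both. The 7 members lower in both were Cyp1a1, Cyp1a2, Cyp1b1, Cyp2b10, Cyp2d12, Cyp4f14 and Cyp4f18, out of 12 adult and 9 neonatal calls among those 28. Of all genes, 17.8% were called lower in the adult and 12.8% in the neonate. The share of all genes lower at both ages was not computed. The call of Cyp2d12 rested on single libraries at both ages, as given above. Without counts in the neonatal mTEChi AireKO libraries were 28 members, 27 of them with 1 to 445 counts in Ctrl, and 22 members had no count in AireKO mTEChi of either age. Ctrl had more libraries than AireKO, and the share of all genes without counts in these groups was not computed. All neonatal AireKO and Ctrl libraries held mitochondrial counts. The AireKO mice were 4 to 6 days old and the Ctrl mice 1 to 6 days, and the part of age was not tested. The enterocyte and hepatocyte markers summed to 269 to 558 CPM in neonatal AireKO and 399 to 576 in Ctrl, overlapping ranges, and the airway secretory markers to 15.2 to 51.7 and 122 to 243.

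**Figure D4:**
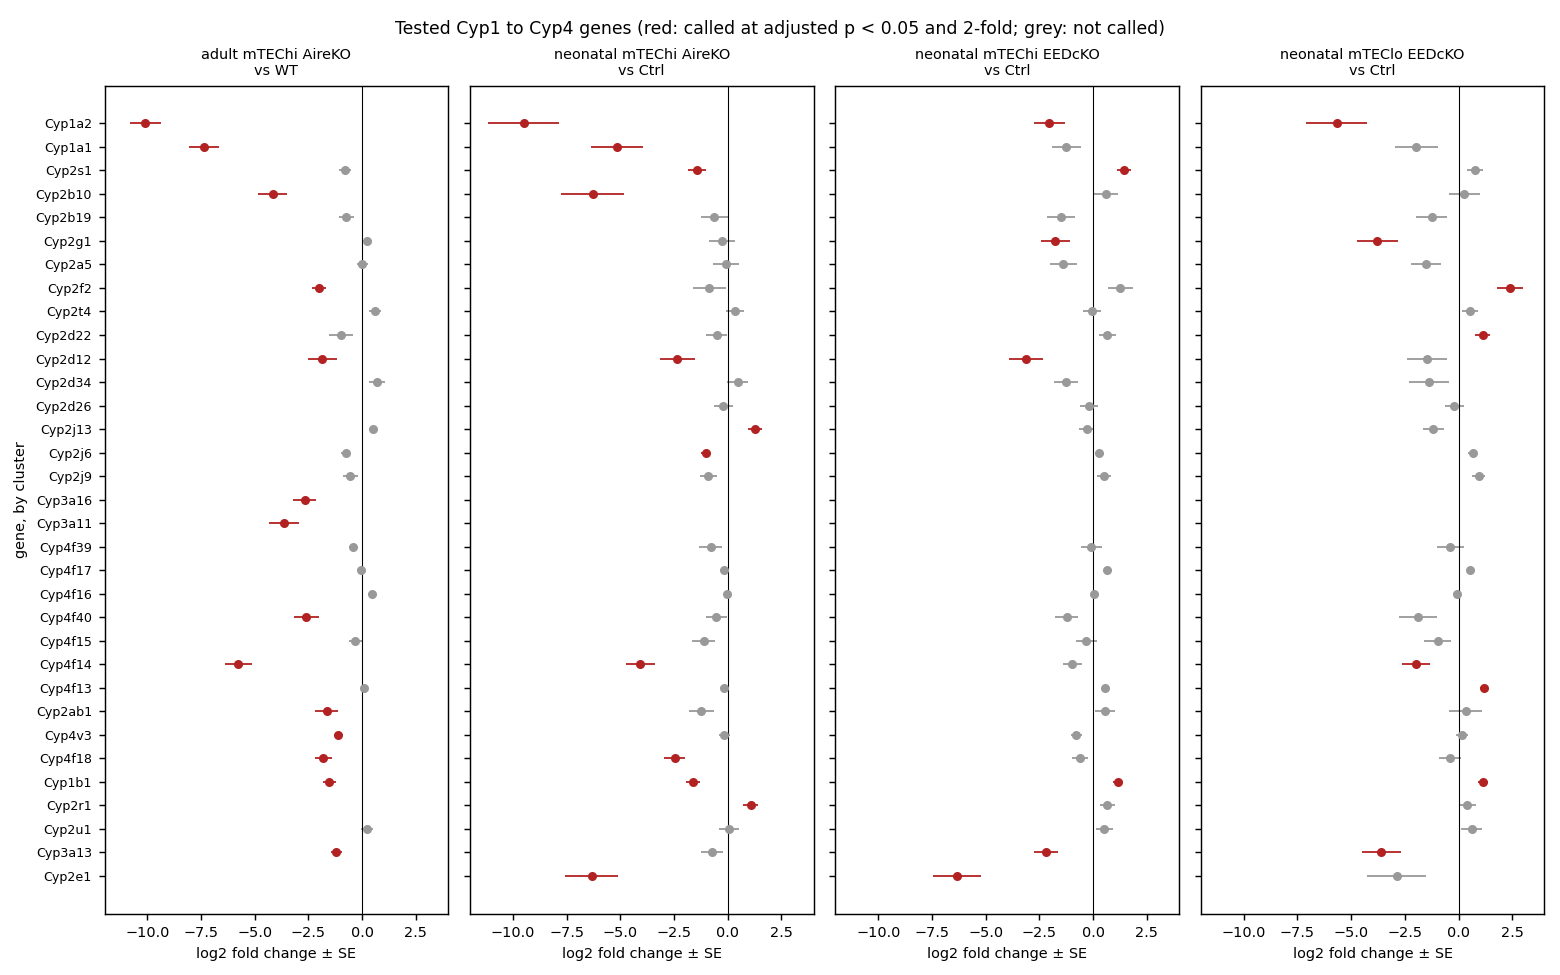
Log2 fold change of each tested member, with bars of 1 SE, in 4 comparisons, members called at an adjusted p under 0.05 and at least 2-fold drawn in red. Cyp1a2 stands at -10.10 in adult and -9.49 in neonatal AireKO mTEChi, and Cyp1b1 at -1.53 and -1.61.

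Neonatal mTEChi of EEDcKO and Ctrl mice were compared to ask what loss of Polycomb repressive complex 2 does to the same genes. The comparison shares its Ctrl libraries with the one of neonatal AireKO, so the values are given side by side only. Of 31 tested members 5 fell and 2 rose, beside 5.4% and 8.48% of all genes. The median log2 fold change was -0.18 for the members and 0.00 for all genes. Cyp2e1 had no count in any of the 3 EEDcKO libraries, at least 10.4-fold lower than in Ctrl (-6.34 ± 1.10, adjusted p = 0.00064). Cyp3a13 had 24.8, 31.2, 31.4, 34.1 and 26.9 CPM in Ctrl and 9.91, 2.41 and 8.81 in EEDcKO (-2.19 ± 0.55, adjusted p = 0.0044). Cyp2d12 had 2.81, 4.62, 7.70, 7.13 and 6.56 CPM in Ctrl and 1.24, 0.656 and 0.315 in EEDcKO (-3.12 ± 0.81, adjusted p = 0.0055). For these 3 genes all EEDcKO libraries were below all Ctrl libraries.

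Cyp1a2 behaved unevenly in EEDcKO mTEChi, with 25.4 CPM in replicate 1, inside the Ctrl range of 21.5 to 41.8, and 1.31 and 0.315 CPM in the other 2 (-2.05 ± 0.72, adjusted p = 0.035). The call was lost under DESeq2 and when Ctrl replicate 1, 2 or 3 or EEDcKO replicate 2 or 3 was left out. Cyp1a1 had 6.19, 1.97 and 1.89 CPM in EEDcKO (-1.24 ± 0.69, adjusted p = 0.18), and Cyp4f14 had 9.29, 7.0 and 1.57 (-0.96 ± 0.44, adjusted p = 0.095), so neither passed. Cyp2b10, which had no count in neonatal AireKO, was at 8.67, 3.28 and 4.09 CPM in EEDcKO and at 2.25 to 4.21 in Ctrl (0.62 ± 0.56, adjusted p = 0.42).

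The 2 members that rose were Cyp1b1 and Cyp2s1. Cyp1b1 had 5.62, 11.6, 9.08, 14.8 and 9.13 CPM in Ctrl and 25.4, 19.7 and 24.9 in EEDcKO, with no overlap (1.17 ± 0.23, adjusted p = 0.00046). Cyp2s1, a retinoid- and eicosanoid-metabolizing enzyme of epithelia, had 12.9, 12.1, 12.9, 10.3 and 16.9 CPM in Ctrl and 27.2, 16.4 and 64.2 in EEDcKO (1.46 ± 0.32, adjusted p = 0.0015). Replicate 2 of EEDcKO lay inside the Ctrl range of Cyp2s1, and without EEDcKO replicate 3 the gene was no longer called and the number of members called was 4. In AireKO the same 2 genes fell, as given above. Of the 5 members with 10 or more CG dinucleotides in the window, these 2 were called. The other 3 were not called, namely Cyp4v3 (17 of them, -0.79 ± 0.26, adjusted p = 0.021, lower in every EEDcKO library), Cyp4f39 (11, -0.09 ± 0.49, adjusted p = 0.9) and Cyp2r1 (22, 0.67 ± 0.36, adjusted p = 0.16).

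Fewer of the low members had counts in EEDcKO too. In EEDcKO mTEChi 27 members had no count, 26 of them with 1 to 51 counts in the 5 Ctrl libraries together. Of these 26, 19 had more than 3 counts in Ctrl. Ctrl had more libraries than EEDcKO, and the share of all genes with counts in Ctrl and none in EEDcKO was not computed. The 6 clustered Cyp3a genes had 96 counts in Ctrl (3.38 to 10.4 CPM per library) and 0 in EEDcKO, while they had 37 counts in AireKO (2.75 to 10.3 CPM). The 14 Cyp2c genes had 136 counts in Ctrl (6.60 to 10.7 CPM), 2 in EEDcKO and 20 in AireKO (1.41 to 6.85 CPM). The 7 genes of Cyp4a, Cyp4b and Cyp4x had 101 counts in Ctrl, 33 in EEDcKO (0.219, 5.35 and 9.29 CPM) and 2 in AireKO, and the Cyp1a pair had 557, 73 and 1. Whether EEDcKO and AireKO differ from each other in these sums was not tested. No single library carried the Cyp3a difference, since all 5 Ctrl libraries and no EEDcKO library held counts. Without the filter, 19 members were called lower and 3 higher in EEDcKO against 3.21% and 4.05% of all genes, and 16 lower and 1 higher in AireKO against 7.5% and 1.48%.

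**Figure D5:**
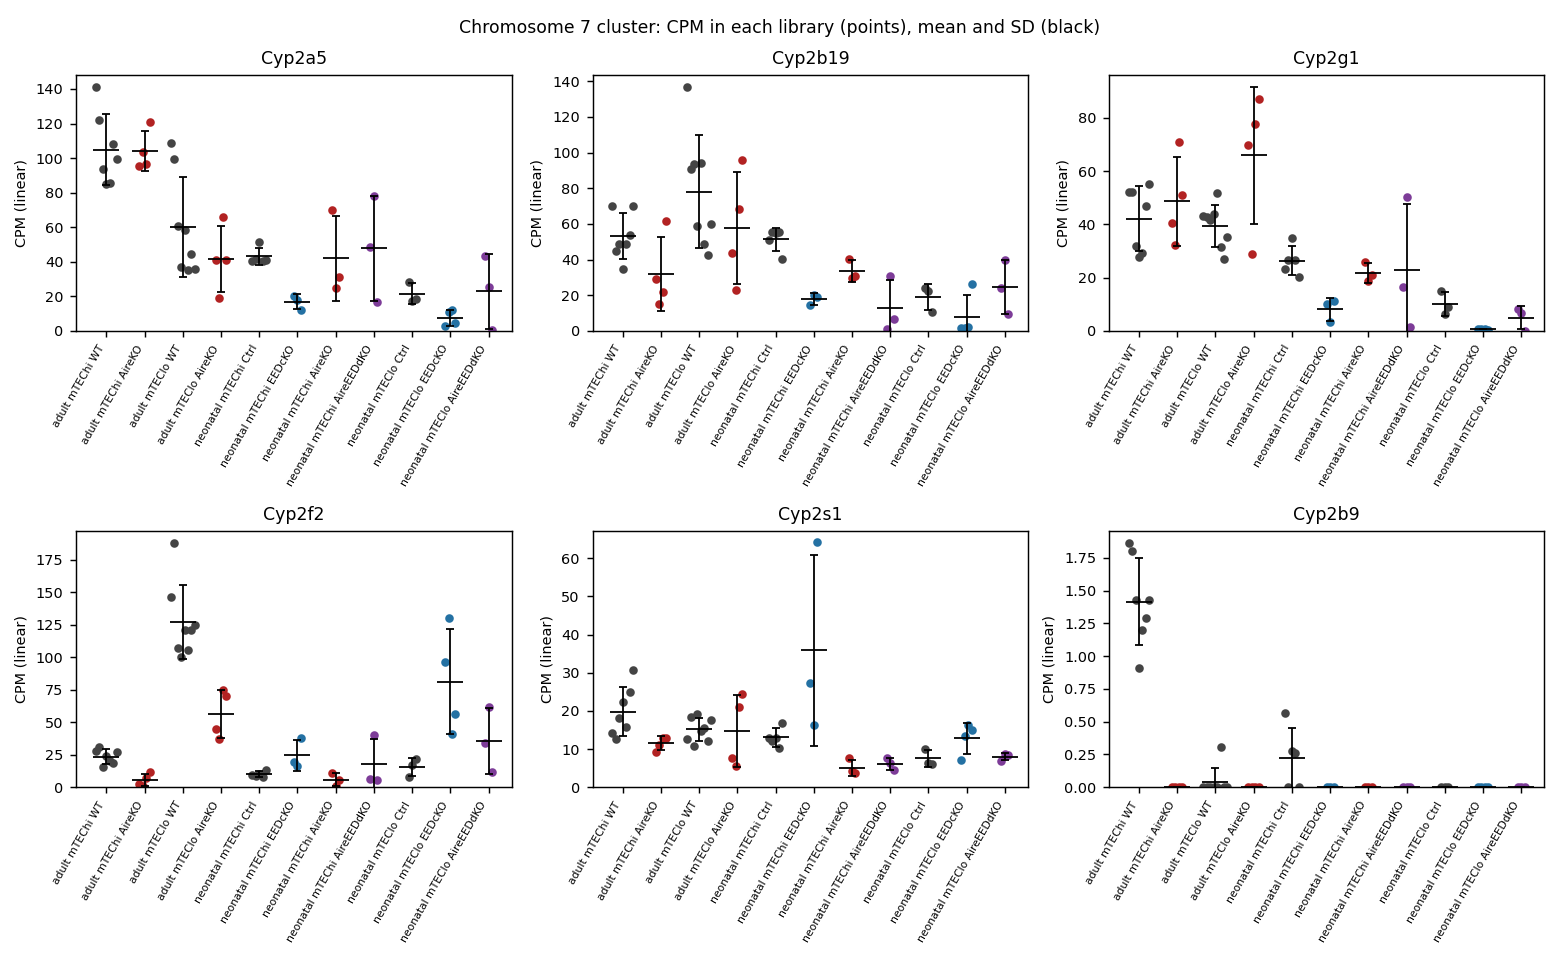
CPM of 6 genes of the chromosome 7 cluster (Cyp2a5, Cyp2b19, Cyp2g1, Cyp2f2, Cyp2s1 and Cyp2b9) in every library, 1 point per library, with the mean and SD of each group in black. In neonatal mTEChi, Cyp2a5, Cyp2b19 and Cyp2g1 lie lower in EEDcKO than in Ctrl in every library, while Cyp2f2 and Cyp2s1 lie higher on average.

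Neighbours in the chromosome 7 cluster moved in different directions in EEDcKO. Cyp2g1 had 23.1, 26.6, 34.9, 26.7 and 20.4 CPM in Ctrl mTEChi and 9.91, 3.28 and 11.3 in EEDcKO (-1.76 ± 0.67, adjusted p = 0.048), a call lost when any of the 8 libraries was left out. Cyp2a5 had 40.5, 41.6, 51.7, 40.7 and 41.2 CPM in Ctrl and 20.4, 17.9 and 11.9 in EEDcKO, and Cyp2b19 had 51.2, 55.5, 54.7, 55.2 and 40.3 in Ctrl and 14.2, 20.3 and 18.9 in EEDcKO. The groups did not overlap for either gene, but the changes of -1.39 ± 0.63 and -1.49 ± 0.65 had adjusted p of 0.096 and 0.079. Cyp2f2 had 7.66 to 13.6 CPM in Ctrl and 19.2, 16.2 and 38.0 in EEDcKO (1.27 ± 0.58, adjusted p = 0.095). In AireEEDdKO mTEChi the libraries were far apart for the same genes, with Cyp2a5 at 48.3, 78 and 17 CPM, Cyp2b19 at 1.18, 30.6 and 6.42 and Cyp2g1 at 16.5, 50.3 and 1.6. Cyp2b9, a liver enzyme encoded in the same cluster, had 0.906 to 1.86 CPM in all 7 adult mTEChi WT libraries and 0 in the 4 of AireKO.

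In neonatal mTEClo the EEDcKO comparison called 4 members higher and 4 lower of 31, beside 9.51% and 6.22% of all genes. Cyp1a2 had 6.75, 2.81 and 7.88 CPM in Ctrl and 0.337, 0, 0 and 0 in EEDcKO (-5.68 ± 1.41, adjusted p = 0.0049). Cyp2g1 had 14.9, 6.31 and 9.0 CPM in Ctrl and 0.673, 0.719, 0.853 and 0.505 in EEDcKO (-3.79 ± 0.96, adjusted p = 0.0043). Both were separated without overlap, as was Cyp4f14, at 4.05, 1.40 and 3.38 CPM in Ctrl and 1.01, 0.719, 0.213 and 1.01 in EEDcKO (-1.99 ± 0.65, adjusted p = 0.023), a call lost without Ctrl replicate 1 (-1.61) or 3 (-1.90) or EEDcKO replicate 3 (-1.61). Cyp3a13 had 9.79, 4.56 and 0.563 CPM in Ctrl and 0, 0, 1.28 and 0 in EEDcKO, with overlap (-3.60 ± 0.90, adjusted p = 0.004), and was not called without Ctrl replicate 1 (-2.71, adjusted p = 0.077).

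Cyp2f2 showed the largest rise, from 7.77, 16.8 and 21.9 CPM in mTEClo Ctrl to 96.3, 130.4, 41.2 and 56.5 in EEDcKO, 5.23-fold between the means and without overlap (2.42 ± 0.61, adjusted p = 0.0042). At 40.0 CPM per kb it was the highest member of that group on the per-length scale. Cyp1b1 rose from 20.3, 18.2 and 24.2 CPM to 48.1, 42.0, 57.6 and 32.8 (1.12 ± 0.23, adjusted p = 0.0007). Cyp4f13 rose from 17.2, 17.5 and 11.2 to 33.7, 32.7, 42.0 and 33.1 (1.18 ± 0.18, adjusted p = 3.8e-05), and Cyp2d22 from 6.42, 6.31 and 6.75 to 19.5, 14, 14.5 and 9.09 (1.13 ± 0.36, adjusted p = 0.019). None of these 4 genes overlapped. Cyp2d22 was not called without Ctrl replicate 1 or 2 or EEDcKO replicate 1 (0.95 to 1.12), and Cyp1b1 was below 2-fold without EEDcKO replicate 3 (0.98). Without Ctrl replicate 1 the number called fell to 5. Cyp1a2, Cyp2g1 and Cyp3a13 were called lower in EEDcKO of both fractions (60% of the mTEChi and 75% of the mTEClo calls), and Cyp1b1 was called higher in both. In mTEChi the calls of Cyp1a2 and Cyp2g1 were lost when single libraries were left out, as given above. The share of all genes called in both fractions was not computed.

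Summed marker RNA of other cell types differed with EED in mTEClo, though the airway secretory ranges overlapped. The 5 airway secretory markers, whose cells are known for Cyp2f2, summed to 300 to 716 CPM in Ctrl and 574 to 2390 in EEDcKO, with none at 0, and of 4 tested 2 were called higher and 1 lower. The 7 mesenchyme markers summed to 132 to 135 CPM in mTEClo Ctrl and 564 to 840 in EEDcKO, and to 249 to 333 and 497 to 781 in mTEChi. The cortical thymic epithelial markers summed to 1690 to 2610 CPM in mTEClo Ctrl and 254 to 881 in EEDcKO. The enterocyte and hepatocyte markers had medians of 465 CPM in mTEChi Ctrl and 122 in EEDcKO, and of 123 and 30.4 in mTEClo. Such sums cannot tell cells of another type from transcription of the marker genes in mTECs. Their part in the P450 results was not tested.

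Loss of both Aire and EED was compared with loss of either. In mTEChi, AireEEDdKO differed from AireKO in 1 of 31 members, which was higher, beside 6.69% of all genes higher and 2.78% lower. This member was Cyp1b1, with 2.74, 4.82 and 2.83 CPM in AireKO and 10.6, 10.4 and 12.8 in AireEEDdKO (1.77 ± 0.35, adjusted p = 0.0011). All 3 double knockout libraries lay above all AireKO libraries and inside the Ctrl range of 5.62 to 14.8. Without the filter on low counts 1 was higher and 2 lower, beside 3.03% and 1.29% of all genes. The count was 2 when AireEEDdKO replicate 2 or AireKO replicate 3 was left out. Cyp2s1, which was also higher in EEDcKO, had 7.54, 4.13 and 3.67 CPM in AireKO and 7.65, 6.35 and 4.49 in AireEEDdKO (0.30 ± 0.52, adjusted p = 0.75).

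Against EEDcKO, AireEEDdKO mTEChi had 9 members lower and 2 higher, beside 8.36% and 4.99% of all genes. Cyp2s1 was lower (35.9 to 6.17 CPM, -2.58 ± 0.42, adjusted p = 0.00019), and so were Cyp1b1 (23.3 to 11.3 CPM, -1.01 ± 0.27), Cyp4f14 (-2.88), Cyp2b10 (-2.60), Cyp2ab1 (-1.90), Cyp4f18 (-1.56) and Cyp2j9 (-1.26). Cyp1a2 and Cyp1a1 had no count in the double knockout, at least 19.7-fold and at least 7.31-fold lower, and the call of Cyp1a2 rested on EEDcKO replicate 1 (-4.50 without it, adjusted p = 0.058). Cyp1a1 was not called without any single one of the double knockout libraries (-6.22 to -6.16, adjusted p up to 0.07). Cyp2j13, as in AireKO, was higher (13.9 to 38.1 CPM, 1.44 ± 0.39, adjusted p = 0.011), with 34.7, 61.8 and 17.6 CPM in the double knockout against 14.2, 9.84 and 17.6, and Cyp2r1 was higher by 1.16. Cyp2ab1, Cyp4f18 and Cyp2r1 were each lost under 4 of 7 other settings and without any of 4 of the 6 libraries, at -1.91 to -1.46, -1.71 to -1.13 and 0.98 to 1.20. Leaving out 1 library ended the call of Cyp2j9 for 4 libraries (-1.33 to -1.06), of Cyp2b10 for 3 (-2.51 to -2.05), of Cyp2j13 for 2 (0.86 and 1.21) and of Cyp1b1 for 3, where it went just below 2-fold (-0.95 without EEDcKO replicate 1 or 3). The libraries involved were all 3 of AireEEDdKO and all 3 of EEDcKO. Cyp2s1 and Cyp4f14 stayed called in every fit run. The number of members called was 6 or 4 without AireEEDdKO replicate 1 or 2, and 7 or 6 without EEDcKO replicate 1 or 2.

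Whether the 2 losses add up was asked of the interaction term in mTEChi, which was called for 0 of the 31 members by edgeR and by DESeq2, against 0.807% and 0.446% of all genes in the positive and negative directions. At an unadjusted p under 0.05 there were 2 positive and 0 negative, Cyp2d12 (3.75 ± 1.32, adjusted p = 0.15) and Cyp3a13 (1.83 ± 0.80, adjusted p = 0.26). For Cyp1b1 the term was 0.60 ± 0.42 with an interval from -0.23 to 1.43. For members without counts in AireKO and AireEEDdKO, such as Cyp1a2 and Cyp2e1, the term could not be estimated. These members are counted among the 31, so the absence of calls does not speak for them. In mTEClo, AireEEDdKO against EEDcKO had 2 members higher and 0 lower, Cyp2d34 (2.51 ± 0.75, adjusted p = 0.04) and Cyp3a13 (3.01 ± 0.91, adjusted p = 0.042), beside 3.45% and 1.85% of all genes. Without the filter 6 were higher and 0 lower, beside 2.05% and 0.994% of all genes. Both calls were lost in a fit of those 2 groups alone. Without AireEEDdKO replicate 1, 2 or 3 the number called was 0, 1 or 6, and without EEDcKO replicate 1 or 2 it was 0. Cyp2f2 was at 33.8, 61.4 and 11.3 CPM in the double knockout, and the difference from EEDcKO was not called (-1.17 ± 0.54, adjusted p = 0.19). The lowest of the 3 lay inside the Ctrl range and the highest inside the EEDcKO range.

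The partners of P450 enzymes were followed in 3 lists. The electron donors Por, Cyb5a and Cyb5r3 were called in none of the 13 comparisons, and Por in EEDcKO mTEChi (0.65 ± 0.17, adjusted p = 0.0045) passed the test below 2-fold. Of 13 tested receptors and regulators, 2 were called higher and 3 lower in adult mTEChi AireKO, beside 5.63% and 17.8% of all genes. The aryl hydrocarbon receptor Ahr, which drives the Cyp1 genes when bound by a ligand, changed by 0.17 ± 0.21 (adjusted p = 0.49), and its repressor Ahrr fell by 2.95 on the log2 scale (SE 0.48, adjusted p = 9.4e-06). The hepatocyte nuclear factor Hnf4a was at -2.18 ± 0.38 and the fatty acid receptor Ppara at -1.71 ± 0.46, while Keap1 (1.04 ± 0.11) and the xenobiotic receptor Nr1i2 (1.02 ± 0.34) were called higher by edgeR, and DESeq2 called 0 higher. In neonatal mTEChi AireKO 2 fell, Hnf4a (-2.50 ± 0.54) and Ahrr (-2.39 ± 0.63), and none rose, beside 12.8% and 3.56% of all genes. In EEDcKO Ahr rose in mTEChi (1.24 ± 0.25, adjusted p = 0.00077) and in mTEClo (1.69 ± 0.28, adjusted p = 0.00012), and Ppara in both (1.03 ± 0.37 and 1.31 ± 0.37). Hnf4g fell in both (-2.33 ± 0.38 and -1.73 ± 0.46), and Hnf4a in mTEClo (-2.02 ± 0.62).

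Conjugating and hydrolysing enzymes act on the products of P450s. Of 15 tested in the adult table, 8 fell and 0 rose in mTEChi AireKO, beside 17.8% and 5.63% of all genes, led by the glucuronosyltransferases Ugt2b5 (-3.48 ± 0.71) and Ugt2b34 (-2.77) and the sulfotransferase Sult1a1 (-2.13 ± 0.32, adjusted p = 3e-06). Among 14 tested in the neonate, 7 fell in AireKO (6 by DESeq2) beside 12.8% of all genes, again with Ugt2b5 (-2.75) and Sult1a1 (-2.32 ± 0.41). In EEDcKO mTEChi 4 fell and 1 rose, beside 5.4% and 8.48% of all genes, and the gene that rose was the epoxide hydrolase Ephx1 (1.32 ± 0.19, adjusted p = 2.8e-05), which rose in EEDcKO mTEClo as well (2.51 ± 0.22, adjusted p = 5.3e-08). The sulfotransferase Sult1d1 fell in EEDcKO of both fractions (-2.88 ± 0.54 and -2.47).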

How the data were processed

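Bulk RNA of sorted mTECs was sequenced from 47 libraries, made by full-length random and oligo-dT priming with Tn5 tagmentation. As the authors describe, reads were trimmed with fastp 0.20.0, where needed to 50 bases, aligned with STAR 2.7.3a, filtered with SAMtools 1.9 (mapping quality under 5 removed), freed of duplicates with Picard 2.21.1 and counted without strand by HTSeq 0.11.2 on an mm10 annotation whose release is not given in the sources used here. The authors deposited raw counts per gene, in an adult and a neonatal table. Multi-mapped reads were thus largely dropped, which lowers near-identical paralogs. Sequencing depth is that of the totals given above, and 3 counts over a group set the floor (95% confidence), which covers counting error only.

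CPM are counts over library totals scaled by TMM. Each table was fitted whole in edgeR 4.0.16 (R 4.3.3, limma 3.58.1) with its quasi-likelihood test after filterByExpr (19310 and 20196 genes), all groups sharing the spread, and p-values were adjusted over all genes tested. Called means an adjusted p under 0.05 and at least 2-fold. The biological coefficient of variation was 14.49% and 19.79%. Alternatives were DESeq2 1.42.0, other scalings, no filter, only the groups compared, sex, library kind, a replicate block and leaving out libraries. Scripts were tested on simulated data. The members and lists were chosen with earlier results of these data known. Every member could be named, with full values for those called or with a mean of 5 CPM or more. Same-numbered libraries deviated together (every correlation over 0.1, from the data alone) only in adult AireKO mTEChi against mTEClo (0.172 to 0.309, 4 pairs) and neonatal mTEChi AireEEDdKO against AireKO (0.189 to 0.277, 3 pairs).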

Additional observations from a re-analysis of the deposited data

Results flagged for a closer look

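The Aire effect differed between adult mTEChi and mTEClo by a test of the difference for 7 members, by a log2 difference of -5.67 for Cyp4f14, -4.52 for Cyp2b10, -3.05 for Cyp4f18, -2.875 for Cyp2ab1, -1.24 for Cyp3a13, -1.16 for Cyp1b1 and 2.77 for Cyp2d34.

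Of 106 groups of values examined, 7 had a library far from the others of its group, where chance gives about 1 in 20. Cyp4f16 was at 85.7 CPM in adult mTEChi WT replicate 7, with the next library at 75. Cyp4f14 and Cyp2a5 were highest in 1 neonatal mTEChi Ctrl library each, at 16.9 CPM in replicate 4 (next 10.7) and 51.7 in replicate 3 (next 41.6), while Cyp2b19 was lowest in replicate 5 at 40.3 (next 51.2). In neonatal mTEClo EEDcKO, Cyp4f13 reached 42.0 CPM in replicate 3 (next 33.7) and Cyp2b19 reached 26.2 in replicate 4 (next 2.13). Cyp2t4 was at 4.09 CPM in adult mTEChi AireKO replicate 2, with the next library at 7.53.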

How the results depend on the processing

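Of 114 called values of single members, 65 were called under every alternative run, 49 were lost under at least 1 (41 when a library was left out, 37 under another setting), and 0 changed sign. DESeq2 lost 6, sex as a term 10, only the groups compared 10, no filter 5 and library size alone 3. The replicate block lost 17 and gave 14 members for adult mTEChi AireKO, 4 for mTEClo AireKO, 17 and 15 for the WT and AireKO fractions, 6 for the difference in Aire effect, 8 for neonatal AireKO, 6 for mTEChi EEDcKO, 1 and 8 for AireEEDdKO against AireKO and EEDcKO, 0 for the interaction, 9 for mTEClo EEDcKO and 11 for the Ctrl fractions. In the pairs that deviated together the block changed no count (15 and 1). Elsewhere the block joined libraries by number alone. Neonatal mTEClo Ctrl replicates 1, 2 and 3 have the same ages and sexes, in order, as mTEChi Ctrl replicates 3, 4 and 5. The same holds for adult mTEClo WT replicates 6, 7 and 8 and mTEChi WT replicates 3, 4 and 5. Pairing at these shifted numbers was not tested, so the block cannot tell whether the Ctrl or WT fractions are paired.

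Without the filter the members called were 34 in adult mTEChi AireKO, 47 between the WT fractions, 22 in mTEChi EEDcKO and 3 in mTEChi AireEEDdKO against AireKO, and library size alone moved the all-gene median to -0.18 in adult and in neonatal mTEChi AireKO. Fitting only the groups compared gave 11 in mTEChi EEDcKO and 5 in AireEEDdKO against EEDcKO. In adult mTEClo AireKO male libraries alone gave 2 and a sex term 3. In mTEClo AireEEDdKO against EEDcKO the number was 4 by DESeq2, 6 without the filter, 0 with those groups alone and 1 with the replicate block. The cause was not tested.

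Leaving out each library gave 12 to 15 in adult mTEChi AireKO, 3 to 6 in mTEClo AireKO, 17 to 18 and 15 to 16 between the WT and AireKO fractions, 5 to 8 for the difference in Aire effect, 8 to 12 in neonatal AireKO, 4 to 8 in mTEChi EEDcKO, 1 to 2 and 4 to 10 for AireEEDdKO against AireKO and EEDcKO, 0 to 0 for the interaction, 5 to 10 in mTEClo EEDcKO, 0 to 6 in mTEClo AireEEDdKO against EEDcKO and 11 to 16 between the Ctrl fractions. Depth left 43 members untested, and single-library values under 1 CPM rest on a few reads.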

Other observations

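Of 21 P450 genes outside families 1 to 4, 17 were tested in the adult table. In adult mTEChi AireKO 8 fell and 3 rose, beside 17.8% and 5.63% of all genes. The steroidogenic enzymes Cyp11a1 (log2 fold change -5.39 ± 0.52) and Cyp11b1 (-7.26 ± 0.84), the aromatase Cyp19a1 (-4.36 ± 0.56), the vitamin D 24-hydroxylase Cyp24a1 (-7.53 ± 1.00) and the brain cholesterol 24-hydroxylase Cyp46a1 (-3.85 ± 0.73) fell. The retinoic acid hydroxylases divided, with Cyp26b1 at -3.19 ± 0.40 and Cyp26a1 at 1.05 ± 0.20. The bile acid enzymes Cyp27a1 (1.26 ± 0.18) and Cyp8b1 (1.03 ± 0.26) rose in edgeR's fit, and DESeq2 called 2 of the 3 higher members. In neonatal mTEChi AireKO 5 of 17 tested fell and 2 rose, beside 12.8% and 3.56% of all genes. Among them were Cyp26b1 (-3.75 ± 0.54) and Cyp26a1 (1.42 ± 0.40). In neonatal mTEChi EEDcKO 3 of 17 tested rose and 1 fell, beside 8.48% and 5.4% of all genes. Cyp26c1 (1.63 ± 0.36), Cyp26a1 (1.60 ± 0.39) and Cyp24a1 (1.38 ± 0.51) rose and Cyp11b1 fell (-1.94 ± 0.56), while DESeq2 called 2 higher and 1 lower. All p-values of called genes were below 0.05 after adjustment in edgeR's quasi-likelihood test.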
